A study of Mus musculus with 4 samples.

Results

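Genes of the extracellular matrix and of the proteases and inhibitors that remodel it were followed across 4 mouse hippocampus samples. The members were all probe sets that the platform annotation maps to exactly 1 gene symbol, where that symbol names a collagen, a laminin chain, fibronectin (Fn1), a fibrillin, a fibulin, Sparc, tenascin C (Tnc), the lecticans brevican, neurocan and versican (Bcan, Ncan, Vcan), a matrix metalloproteinase (Mmp), a tissue inhibitor of metalloproteinases (Timp), or a gene whose symbol begins with Adam. This gave 83 of 8251 named genes, read by 117 of 12422 probe sets. The rule reads gene symbols and no signal. Total RNA of each sample was hybridised to 1 Affymetrix Murine Genome array. All 4 samples are labelled as murine hippocampus and formed 1 group, and neither the labels nor the series text gives a strain, sex, age, treatment or number of animals per sample. No contrast between conditions exists, and the spread between samples may in part be technical. The samples are called 1 to 4, numbers that are names only, and lists of 4 signals below follow that order.

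The extracellular matrix of the brain differs from that of most organs. Fibrillar collagens, laminins and type IV collagen are concentrated in the meninges and in the basement membranes of vessels, while the neuropil holds hyaluronan bound to lecticans, which also build the perineuronal nets around some neurons. Metalloproteinases of the Mmp, Adam and Adamts families cut matrix proteins and shed membrane proteins, and Timp proteins block them.

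Signals are quantile normalized array units, and probe sets with a mean log2 signal above the median of all probe sets, a signal of 99.6 units, were analysed. Of the 117 members, 37 probe sets for 35 genes (31.6%) were analysed, where 50% of all probe sets were by construction. All 37 lay above the floor of 27.7 units, the 25th percentile, in all 4 samples. The neuronal markers fixed for the check of the tissue were present, since 9 of 9 measured ones, Snap25 and Map2 among them, passed the same filter. The deposited values of different samples coincided in at most 0.304% of probe sets, and no sample was a copy of another. The 3' to 5' signal ratio of control transcripts, which rises with less complete RNA or cDNA, was highest in sample 4 for beta-actin (2.03, against 1.51 to 1.84 in the others) and Gapdh (1.15, against 0.864 to 0.981). It was also highest there for 18S RNA (6.42, against 3.02 to 5.01) and, by a small margin, for pyruvate carboxylase (3.16, against 1.81 to 3.03). The order for the transferrin receptor was not settled, since the 5' signal of sample 4 was below the floor and gives only a bound of 2.71 or more, while the others had 1.41 to 3.36. The share of analysed probe sets that were highest in a sample was 24.7%, 21.6%, 22.5% and 31.2% in samples 1 to 4, and 30.6% were lowest in sample 4.

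The widest range among the analysed members belonged to Timp1, an inhibitor of metalloproteinases. The spread of each probe set was tested against that of probe sets of like signal (limma, F test in the upper tail, Benjamini-Hochberg adjusted over all 6211 analysed probe sets). It passed for 0 of 37 members, the lowest adjusted p being 0.593, and for 0% of all, the lowest being 0.316. At an unadjusted p under 0.05 there was 1 of 37 members, Timp1, against 5.86% of all analysed probe sets. The median range of the members from the lowest to the highest sample was 0.62 log2 units (1.53-fold), beside 0.53 (1.44-fold) for all analysed probe sets. A range under 1.5-fold was found for 16 of 37 members (43.2%; 56.2% of all), and a range of at least 2-fold for 8 of 37 (21.6%; 14.4% of all). These 8 were Timp1, Col18a1, Col11a1, Vcan, Adam3, Adam10, Mmp17 and Adam28. The count of 8 was 4 without sample 1 (10.5% of all probe sets) and 3 without sample 4 (6.65%), and 5 with log2(signal + 16) in place of the floor (11.5%). It was 34 of 117 with no filter on signal (22.6%), and 22 of 59 among members above the floor in all samples (21.2%). In these bulk samples fewer cells of a type and less RNA per cell cannot be told apart.

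**Figure D1:**
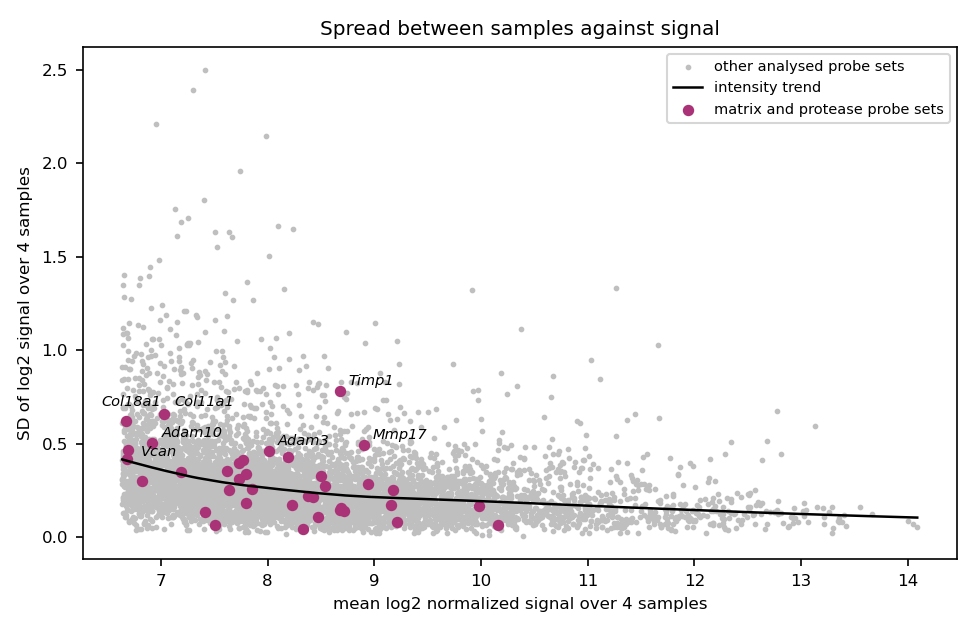
SD of the log2 signal over the 4 samples (vertical axis) against the mean log2 signal (horizontal axis) for the 6211 analysed probe sets, with the fitted intensity trend as a line and the 37 matrix and protease probe sets as large points. The members lie on both sides of the trend, and Timp1 is the highest of them.

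Sample 4 was at one end of the range in 7 of the 8 members that spanned at least 2-fold, beside 66.9% of the 897 analysed probe sets with such a range. The pair of samples with the most members at least 2-fold apart was 1 and 4, with 7 of 37 (18.9%; 6.91% of all). Samples 2 and 4 had 3 such members (8.11%; 5.26% of all), samples 1 and 2 had 2 (5.41%; 3.51% of all), samples 3 and 4 had 2 (5.41%; 6.39% of all), samples 2 and 3 had 1 (2.7%; 4.06% of all), and samples 1 and 3 had 0 (0%; 2.91% of all). Over members the median absolute log2 difference was smallest between samples 1 and 2, at 0.22, and largest between samples 2 and 4, at 0.40, where all analysed probe sets had 0.23 and 0.28. The 3' to 5' ratios of beta-actin, Gapdh, 18S RNA and pyruvate carboxylase were highest in the same sample, and the part of RNA quality in these ranges was not tested. Of the 37 members, 14, 5, 4 and 14 were highest in samples 1 to 4 and 9, 7, 8 and 13 lowest, where 23.2%, 22.7%, 23.4% and 30.6% of all were lowest. The numbers that exceeded the average of the remaining samples were 23 in sample 1 (51.4% of all), 22 in sample 2 (51.1% of all), 14 in sample 3 (51.1% of all) and 22 in sample 4 (52.2% of all). The median log2 deviation of the members from that average was 0.16, 0.03, -0.04 and 0.06. A sample stood far from the other 3 by Dixon's ratio in 2 of 37 members (6.02% of all), Col1a1 and Bcan.

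**Figure D2:**
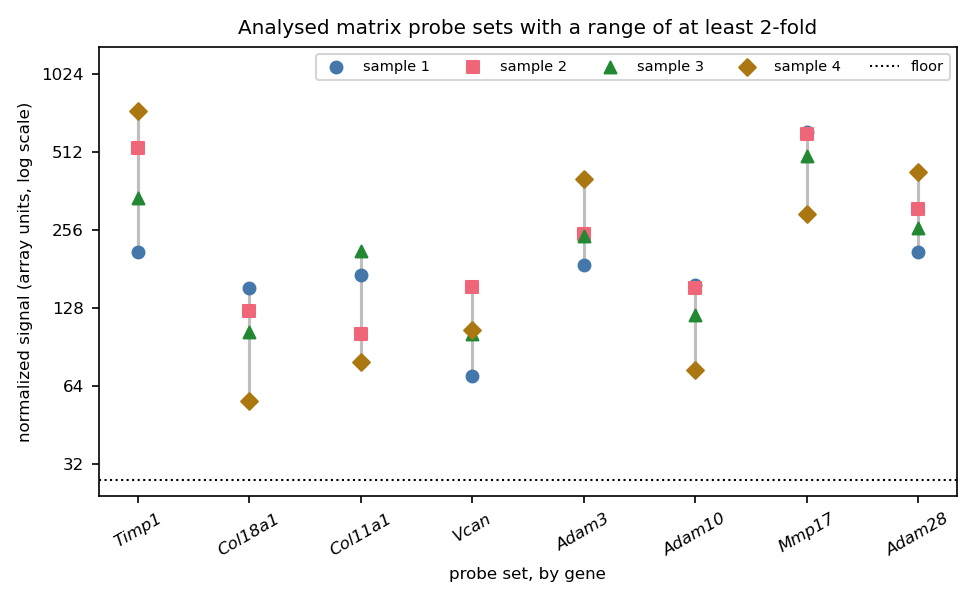
Normalized signal on a log scale (vertical axis) in samples 1 to 4 for the 8 analysed member probe sets that spanned at least 2-fold, ordered by range, with the floor of 27.7 units as a dotted line. Sample 4 is the lowest point for Col18a1, Col11a1, Adam10 and Mmp17 and the highest for Timp1, Adam3 and Adam28.

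The 3 inhibitor genes measured did not share a pattern. Timp1, a secreted inhibitor that is induced in many tissues by injury and cytokines, gave 211, 530.4, 340.0 and 735 units in samples 1 to 4 (mean 454 ± 229, SD, n = 4). Sample 4 was 3.48-fold above sample 1, with samples 3 and 2 between them. The excess of its variance over the trend had an unadjusted p of 0.00891 and did not pass adjustment (limma F test, adjusted p = 0.593; 0.382 to 0.948 for the smallest adjusted p of any member under the alternatives). Timp2, which takes part in the activation of Mmp2 at the cell surface besides its inhibitory role, gave 438, 377, 403 and 284 units (376 ± 66.2, SD, n = 4). Its lowest sample was the one in which Timp1 was highest, and its range was 1.54-fold. Timp3, which binds to the matrix and also inhibits several Adam proteases, gave 377, 441, 472 and 402 units (423 ± 41.6, SD, n = 4), a range of 1.25-fold. The second probe set of Timp1 and 2 further probe sets of Timp2 lay under the floor in all samples and give no second reading.

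The regions before the start sites of these 3 genes are shown because the inhibitors form 1 family whose members ranged differently between the samples, and those of Vcan and Col11a1 because they are other members with a range of at least 2-fold. Each sequence holds the 250 bases before the annotated start site, from RefSeq on mouse build GRCm38.p6, written 5' to 3' on the strand of the gene. Capitals mark matches on either strand to a GC box (GGGCGG) or a CCAAT box (CCAAT).
Timp1, chrX:20869916-20870165, plus strand: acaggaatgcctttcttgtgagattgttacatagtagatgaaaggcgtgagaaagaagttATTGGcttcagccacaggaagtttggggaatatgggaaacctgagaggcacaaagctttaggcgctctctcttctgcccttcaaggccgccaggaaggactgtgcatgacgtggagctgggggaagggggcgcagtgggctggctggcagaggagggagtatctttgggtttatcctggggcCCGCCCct
Timp2, chr11:118355412-118355661, minus strand: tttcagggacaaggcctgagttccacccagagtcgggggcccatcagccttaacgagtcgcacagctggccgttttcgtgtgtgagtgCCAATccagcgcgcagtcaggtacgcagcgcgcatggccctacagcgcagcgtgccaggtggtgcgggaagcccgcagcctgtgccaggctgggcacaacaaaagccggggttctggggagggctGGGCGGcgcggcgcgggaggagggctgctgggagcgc
Timp3, chr10:86300162-86300411, plus strand: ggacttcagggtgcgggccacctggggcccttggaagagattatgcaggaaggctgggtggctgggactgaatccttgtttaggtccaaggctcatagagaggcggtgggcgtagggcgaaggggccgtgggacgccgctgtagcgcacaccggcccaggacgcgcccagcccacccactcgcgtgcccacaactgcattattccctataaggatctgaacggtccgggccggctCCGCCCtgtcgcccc
Vcan, chr13:89742513-89742762, minus strand: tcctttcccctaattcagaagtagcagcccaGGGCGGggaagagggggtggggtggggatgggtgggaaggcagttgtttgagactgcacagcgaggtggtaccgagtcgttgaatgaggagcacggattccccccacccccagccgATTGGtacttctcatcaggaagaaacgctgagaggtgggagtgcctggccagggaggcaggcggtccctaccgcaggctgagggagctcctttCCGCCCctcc
Col11a1, chr3:114030290-114030539, plus strand: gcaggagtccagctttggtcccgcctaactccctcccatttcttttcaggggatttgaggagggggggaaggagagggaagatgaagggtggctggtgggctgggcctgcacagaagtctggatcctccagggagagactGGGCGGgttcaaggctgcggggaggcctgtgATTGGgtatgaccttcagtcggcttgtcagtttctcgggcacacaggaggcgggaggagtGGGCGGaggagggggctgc

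Counting back from -1, the base just before the start site, the GC box of Timp1 began at -8 and its CCAAT box at -190. In Timp2 they began at -37 and -162. Timp3 had a GC box at -15 and no CCAAT match in this window. Vcan had GC boxes at -219 and -10 and a CCAAT box at -103, and Col11a1 had GC boxes at -110 and -19 and a CCAAT box at -79. A window was listed for 54 of the 83 member genes, 25 of the 35 analysed genes and 5 genes of the 8 probe sets with a range of at least 2-fold (Timp1, Vcan, Col11a1, Col18a1 and Adam10). Both boxes lay in 1 window in 5 of those 5 genes and in 12 of the 25 analysed genes, as they did in 12.5% of all 27025 genes with a window. Among the 25 analysed genes, 19 had a GC box and 14 a CCAAT box in at least 1 window, beside 35.4% and 37.5% of all genes. These 25 had passed the filter on signal, and the shares over all analysed genes of the array were not computed. Of the 54 member genes with a window, analysed or not, 30 had a GC box and 19 a CCAAT box. A gene can have several windows, and 32.7% and 33.8% of all 32851 windows of this length held these boxes. An AP-1 motif (TGANTCA) was found for 1 of the 25 genes, Col6a1, and for 7 of the 54, where 7.82% of all genes had it. A TATA box (TATAAA) was found for 1 of the 25, Ncan, and for 12 of the 54, beside 14.3%. A cAMP response element (TGACGTCA) was found for 0 of 25, beside 1.77%. Matches were sought on both strands and may overlap. They are descriptions of letters, and no test was made.

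Among proteases, few metalloproteinases reached the analysed range. Of 16 Mmp probe sets for 13 genes, 2 were analysed, beside 50% of all probe sets. Another 8 lay under the floor in all samples, and the share of this over all probe sets was not computed. Mmp17, a metalloproteinase anchored to the membrane through a lipid, gave 613, 601, 492 and 294 units (499.9 ± 148, SD, n = 4), so that sample 4 lay below the other 3 samples, with a range of 2.08-fold. Its unadjusted p was 0.0509 and its adjusted p 0.851 (limma F test). Without sample 4 its log2 range was 0.32. Mmp14, the membrane enzyme that activates Mmp2, gave 332, 282, 262 and 332 units (302 ± 35.7, SD, n = 4), a range of 1.27-fold with samples 1 and 4 level at the top. The gelatinase gene Mmp9, the stromelysin genes Mmp3 and Mmp10, and Mmp7, Mmp8 and Mmp24 were under the floor in all 4 samples.

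Of 21 probe sets for 17 genes with an Adam symbol outside the Adamts group, 8 were analysed, beside 50% of all probe sets. Of these 8, 3 spanned at least 2-fold, beside 14.4% of all analysed probe sets. Adam10, the main alpha-secretase of the amyloid precursor protein and a sheddase of Notch and cadherins, was read by 2 analysed probe sets that did not give the same spread. The probe set 100751_at gave 156, 153, 119.6 and 73.8 units (2.12-fold), and 97947_at gave 189, 159.9, 156 and 182 units (1.21-fold). Sample 1 was highest in both, but sample 4 was lowest in the first and second highest in the other. Adam11, Adam22 and Adam23 encode brain proteins that lack protease activity and bind other membrane proteins. Adam11 gave 703, 626, 532 and 473 units (584 ± 101, SD, n = 4) and Adam23 gave 192, 247, 204 and 161 units (201 ± 35.4, SD, n = 4), with sample 4 lowest in both. Adam15 was also lowest in sample 4 (256, 269, 223 and 160.2 units). Adam22 was below the analysed range.

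The sperm protein genes Adam3 and Adam5, and Adam28, were analysed through probe sets whose suffix, r_at, marks sets for which rules of probe selection were relaxed. That suffix was carried by 4 of the 37 analysed members. Adam3 gave 187, 247, 242 and 401 units, a range of 2.14-fold, while its other probe set lay under the floor in all samples. Adam28 gave 211, 308, 261 and 426 units (2.02-fold), and Adam5 gave 482, 638, 576 and 601 units (1.32-fold), with the other Adam5 probe set under the floor in all samples as well. Adam3 and Adam28 had the same order at both ends, lowest in sample 1 and highest in sample 4, as did Timp1. Of the other r_at probe sets analysed, that of Col1a2 was also highest in sample 4 and that of Adam5 in sample 2. Across all analysed probe sets 31.2% were highest in sample 4. Whether this order goes with the genes or with the kind of probe set was not tested.

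Collagen genes outside the fibrillar group were more often high in sample 1 than in any other sample. In sample 1, 3 of 3 basement membrane and 7 of 7 other collagen probe sets exceeded the average of the remaining samples, but only 2 of 4 fibrillar ones. Of the fibrillar ones 0 of 4 were highest in sample 1, and the median log2 deviation of that group there was -0.14. Of all 14 analysed collagen probe sets, 12 exceeded that average in sample 1, beside 51.4% of all analysed probe sets, and 8 were highest there, beside 24.7%. The median log2 deviation of the 14 in sample 1 was 0.21, and it was -0.08, -0.06 and 0.06 in samples 2 to 4, while all analysed probe sets had 0.01 to 0.02. Sample 2 was highest in 0 of the 14 (21.6% of all). These collagen counts were made after the values had been seen. Without the filter on signal, 23 of 44 collagen probe sets exceeded that average in sample 1, beside 41.1% of all probe sets, and a probe set with all values at the floor counts there as not above.

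**Figure D3:**
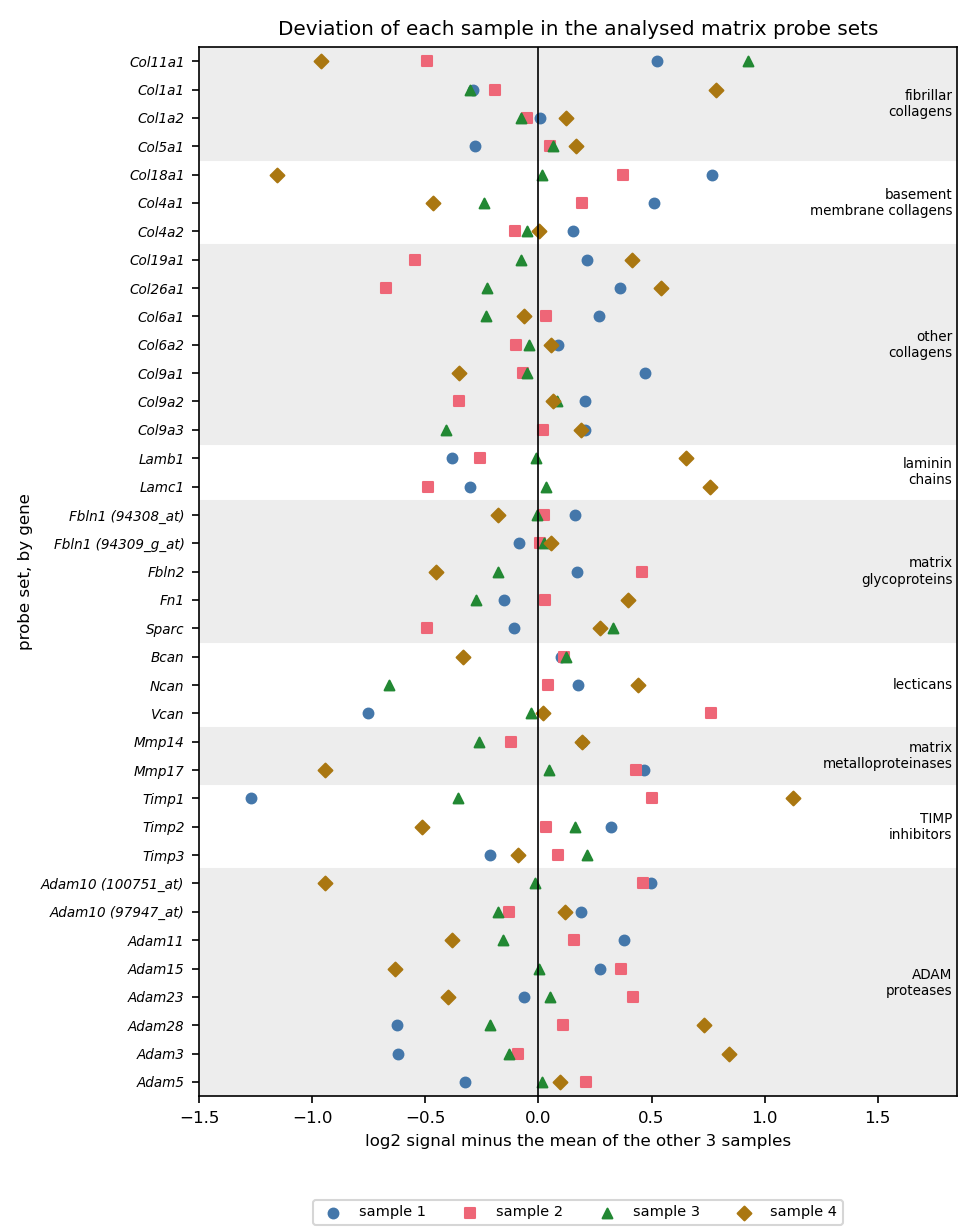
Difference of each sample's log2 signal from the average of the remaining samples (horizontal axis) for the 37 analysed member probe sets (vertical axis), grouped by the role of the gene, with 1 symbol per sample. In the collagen groups the symbols of sample 1 lie to the right of 0 in 12 of 14 rows, and sample 4 is at one end in 7 of the 8 rows that span at least 2-fold.

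Among the other cell types whose markers were fixed for the check, neuronal genes were also high in sample 1, 8 of 9 above that average with a median log2 deviation of 0.29, and the summed signal of 9 measured markers was 24343, 21188, 21824 and 18889 units in samples 1 to 4. Red blood cell genes were above in 4 of 4, with a median of 0.83. Markers of meninges and fibroblasts, the cells that make most fibrillar collagen, were above it in sample 1 in 6 of 9, with a median of 0.17. Their summed signal over 13 measured genes was 7133, 7265, 7871 and 10278 units, highest in sample 4, and 1 of them, Slc22a6, was under the floor in all samples. Much of that sum came from 1 gene, the prostaglandin D synthase Ptgds (3363, 4188, 4458 and 6734 units). Without it the sum over 12 genes was 3770, 3077, 3413 and 3544 units, highest in sample 1. This gene was left out after the values had been seen. Of the 9 analysed markers, 2, 3, 2 and 2 were highest in samples 1 to 4, so the list had no single highest sample. Endothelial markers were above in 3 of 6, with a median of 0.01 and sums from 1464 to 1684 units, and none of 11 measured was under the floor throughout. Of 8 measured mural cell markers only Rgs5 was analysed, and it was highest in sample 1 (166, 79.0, 99.9 and 129 units). Of 4 measured choroid plexus markers 2 were analysed, and 1 of 2, the transthyretin gene Ttr, was above in sample 1. Its signals were 2630, 1236, 954 and 1820.2 units, with samples 1 and 4 high, and the sum of the 4 markers was 2982, 1625, 1137 and 2266 units. Astrocyte and oligodendrocyte markers did not share the direction of the collagens, since 1 of 7 astrocyte genes (median -0.12) and 1 of 6 oligodendrocyte genes (median -0.21) lay above in sample 1. For microglia it was 5 of 8 (median 0.04) and for oligodendrocyte precursors 2 of 2 (median 0.07). The part of these cells in the collagen values was not tested.

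Basement membrane collagens were highest in sample 1 in 3 of 3 analysed probe sets, beside 24.7% of all analysed probe sets. Col4a1 and Col4a2 encode the chains that join in the common type IV collagen of vessel basement membranes. Col4a1 gave 474, 402, 321 and 285 units (370.4 ± 84.4, SD, n = 4), a range of 1.66-fold with samples 3 and 4 low. Col4a2 gave 641, 561, 577 and 593 units (593 ± 34.7, SD, n = 4), a range of 1.14-fold with sample 1 highest and sample 4 next, so that the chains did not share their lowest sample. Col18a1, the source of endostatin, gave 152, 124, 103 and 56.1 units (109 ± 40.6, SD, n = 4), a range of 2.72-fold (1.44 log2 units), which was 0.56 log2 units without sample 4. A second Col18a1 probe set, below the analysed range, was highest in sample 4 (45.4, 26.6, 55.8 and 60.5 units, with sample 2 under the floor), and 3 more were under the floor in all samples.

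Fibrillar collagens were highest in sample 4 in 3 of 4 analysed probe sets, beside 31.2% of all analysed probe sets. Col1a2, a chain of type I collagen, varied least, from 1099.8 to 1220.1 units (1146 ± 53.5, SD, n = 4), through an r_at probe set, while its other probe set was under the floor in all samples. Col1a1, the partner chain, gave 182, 192, 182 and 319 units in the analysed probe set 103709_at, with sample 4 apart from the rest. The probe set 94305_at of the same gene, below the analysed range, had sample 4 lowest (107, 73.6, 55.9 and 36.2 units), so that the sample with the extreme value was the same and its direction was not. Col5a1, a chain that regulates fibril diameter, gave 354, 420.4, 424 and 447 units, a range of 1.26-fold. Col11a1, a minor fibrillar chain best known from cartilage, gave 172, 101, 212 and 79.4 units (141 ± 61.5, SD, n = 4), a range of 2.67-fold with samples 1 and 3 above samples 2 and 4 (limma F test, adjusted p = 0.942).

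The other collagens spanned less than 2-fold in 7 of 7 analysed probe sets, where 14.4% of all spanned at least 2-fold. All 7 exceeded the average of the remaining samples in sample 1, beside 51.4% of all. Col26a1, the widest of them, gave 123, 72.2, 91.0 and 136 units (106 ± 29.2, SD, n = 4), a range of 1.88-fold. Col6a2 and Col6a1 encode chains of the beaded microfibril collagen around many cells. Col6a2 gave 191, 173, 178 and 188 units (182 ± 8.26, SD, n = 4), the smallest range of this group at 1.10-fold, and Col6a1 gave 474, 419, 365 and 399 units. The 3 chains of type IX collagen, a collagen that decorates fibrils, had ranges from 1.33-fold to 1.53-fold. Col9a1 gave 295, 223, 225 and 192 units, Col9a2 gave 247, 185, 232 and 229 units, and Col9a3 gave 382, 347, 278 and 379 units. Sample 1 was highest for all 3 chains, and their lowest sample was a different one in each case. Col19a1, which interneurons of the hippocampus are known to express, gave 238, 159.9, 204 and 263 units.

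Laminins, the cross-shaped trimers of basement membranes, were analysed through 2 of 14 probe sets, where 50% of all probe sets were analysed. Both were highest in sample 4, beside 31.2% of all analysed probe sets. Lamc1, the gamma chain of most laminins, gave 187, 169.8, 222 and 324 units (226 ± 69.1, SD, n = 4), a range of 1.91-fold. Lamb1 gave 120.0, 128, 145 and 205 units (149.7 ± 38.6, SD, n = 4), a range of 1.71-fold. Samples 1 and 2 were the lower samples in both. The suffix of both probe sets, f_at, marks sets whose probes can match related sequences. A second Lamb1 probe set below the analysed range did not share the order, with sample 3 highest (93.3, 30.6, 103 and 65.8 units). A second Lamc1 probe set was highest in sample 2 (36.8, 69.5, 44.9 and 42.6 units).

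Of the matrix glycoproteins, 5 probe sets for 4 genes were analysed, and 0 spanned 2-fold, beside 14.4% of all analysed probe sets. Fibronectin (Fn1), a cell adhesion protein of plasma and vessel walls, gave 307, 338, 288 and 408 units (335 ± 52.7, SD, n = 4), highest in sample 4 with a range of 1.42-fold. Sparc, a collagen-binding protein made by endothelial and glial cells, gave 465, 380.5, 584 and 567 units (499 ± 94.8, SD, n = 4), with samples 3 and 4 above samples 1 and 2. Fbln2, of elastic fibres and basement membranes, gave 124, 144, 103 and 89.6 units, and its range of 1.61-fold was the widest of this group. Fbln1 was read by 2 analysed probe sets, 387, 361, 355 and 324 units and 309, 324, 327 and 332 units, whose order was reversed from sample 1 to sample 4, with ranges of only 1.19-fold and 1.08-fold. Across the array, 27.3% of 692 genes with several analysed probe sets had the same highest sample in all of them. Single probe sets were highest in samples 1 to 4 in 24.7%, 21.6%, 22.5% and 31.2% of cases, and the 27.3% lies within these shares. Most such matches could therefore occur without a shared order. In most of these genes the probe sets did not all share a highest sample. The sample orders given here may thus not hold for another probe set of the same gene. Tnc, a glycoprotein of developing tissue and astrocytes, stayed below the analysed range, at 43.7, 29.1, 51.2 and 67.0 units.

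The lecticans, the hyaluronan-binding proteoglycans of neuropil, were analysed for all 3 genes. Brevican (Bcan), the lectican of adult brain that astrocytes and neurons make, gave 1066, 1076, 1079 and 853 units (1018 ± 110.4, SD, n = 4). Samples 1 to 3 lay within 0.02 log2 units of one another and sample 4 below them, a range of 1.26-fold. Neurocan (Ncan) was lowest in sample 3 and highest in sample 4 (216, 202, 139.8 and 248 units, 201 ± 45.3, SD, n = 4). Versican (Vcan) was lowest in sample 1 and highest in sample 2 (70.1, 154, 102 and 105 units, 108 ± 34.7, SD, n = 4). Its range was 2.20-fold, and its variance did not pass the test for an excess over the trend (limma F test, adjusted p = 0.994). The second probe sets of Bcan and Ncan stayed below the analysed range, at no more than 47.1 units in any sample.

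Probe sets of the same gene fell on different sides of the floor in some member genes, and the share over all genes of the array was not computed. Several probe sets were present for 27 of the 83 genes, and in 7 genes at least 1 was analysed while another stayed under the floor in all samples. These were Adam3, Adam5, Col18a1, Col1a2, Fbln1, Timp1 and Timp2. Of the 80 member probe sets not analysed, 29 were under the floor in all 4 samples, 29 were above it in 1 to 3 samples and 22 in all 4. For 12 genes no probe set reached the floor in any sample: Adam8, Adamdec1, Adamts1, Col22a1, Col4a3, Col4a4, Mmp3, Mmp7, Mmp8, Mmp9, Mmp10 and Mmp24. Without detection calls, a signal under the floor does not tell a silent gene from a probe set that fails to read it. Near the filter at 99.6 units, Adam9 (97.3) and Lama5 (93.5) fell just outside, while Col18a1 (102), Col26a1 (102) and Vcan (104) fell just inside, as geometric means.

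**Figure D4:**
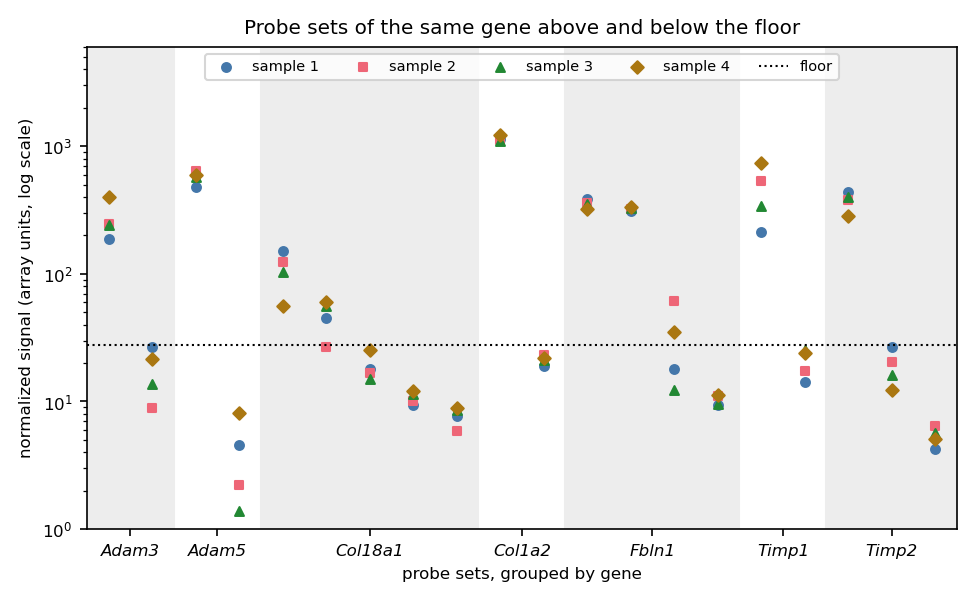
Normalized signal on a log scale (vertical axis) in samples 1 to 4 for all probe sets of the 7 genes with both an analysed probe set and one under the floor of 27.7 units (dotted line) in every sample. Each column is a probe set, shaded by gene, and those under the line carry no order between samples.

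Genes that make, bind or cut the same matrix but lie outside the chosen symbols were examined as well. Of 41 analysed genes in 4 such lists, 7 spanned at least 2-fold (17.1%), beside 12.9% over all genes with 1 analysed probe set kept for each, and 0 passed the variance test, where 0% of all did. The median log2 range was 0.47 for collagen processing, 0.50 for other matrix proteins, 0.46 for other proteases and inhibitors and 0.61 for receptors, where the members had 0.62 and all analysed probe sets 0.53. Among genes of collagen processing, 1 of 8 spanned 2-fold, the collagen chaperone Serpinh1 (102, 111, 64.0 and 171 units). Of 13 other matrix proteins, 2 did, decorin (Dcn; 723, 343, 869 and 813 units) and Mgp, an inhibitor of matrix calcification (142, 177, 131 and 86.2 units). Of 10 other proteases and inhibitors, 2 did. The membrane-anchored Mmp inhibitor Reck gave 166, 171, 103 and 34.0 units, a range of 5.03-fold with sample 4 lowest, where Timp1 was highest. The plasminogen activator Plat gave 444, 302, 445 and 622 units. Of 10 receptors, 2 integrin genes did, Itga7 (132, 164, 185 and 321 units) and Itgb5 (277, 201, 459.8 and 381 units).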

How the data were processed

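Each of the 4 hippocampus RNA samples was read on 1 Affymetrix MG_U74Av2 array, named in the platform annotation. The authors deposited linear intensities, with software not given in the sources used here. Without 2% of probe sets at each end their mean was 250.1 units on every array, as after scaling to a common target. Precision is limited by the number of arrays, and background correction could not be varied.

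From 12488 probe sets, 66 controls were left out. Arrays were quantile normalized (limma 3.58.1, R 4.3.3), values under the 25th percentile were set to it, and log2 was taken, which understates low ranges. Probe sets with a mean log2 value above the median were analysed, 6211 in all. Each variance was tested against a robust intensity trend (one-sided F test, 3 residual and 5.20 prior degrees of freedom, Benjamini-Hochberg at 0.05). The test was run first on simulated data, where recovery was required only for changes far wider than the range of any analysed member. Spreads of the size seen in the members may therefore go unflagged. A deviation is a sample's log2 signal less the average of the remaining 3.

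The annotation gave 1 symbol for 10833 probe sets, several for 396 and none for 1193. All 117 member symbols equal those in RefSeq (GRCm38.p6, by Entrez identifier). Named genes were, per role, the widest and narrowest range, all ranges of at least 2-fold, the singly listed genes, and genes whose probe sets differ in their highest sample; the others were chosen after their values were seen. In lists outside the rule, the analysed probe set with the highest mean stood for a gene, and the widest ranges were named. Members, lists and tests were chosen with earlier results of these data known. Alternatives covered normalization, filter, floor, variance model, probe set choice and each sample left out.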

Additional observations from a re-analysis of the deposited data

Results flagged for a closer look

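In 5 of 71 probe sets, 1 sample lay far from the other 3, by the ratio of its gap to the whole range (Dixon's ratio above its 95% critical value). The probe sets were the members above the floor in all samples and the widest genes of the lists outside the rule. Chance flags about 1 in 20 groups, and 6.02% of all analysed probe sets passed this limit. Sample 4 was apart in 3 of the 5. It was high for Col1a1 (ratio 0.900; 182, 192, 182 and 319 units) and for the heparan sulfate proteoglycan Sdc2 (0.958; 135, 138, 134 and 250.5 units), and low for Bcan (0.951; 1066, 1076, 1079 and 853 units). Sample 1 was low for Col14a1, a fibril-associated collagen below the analysed range (0.947; 43.4, 63.9, 63.4 and 64.7 units), and sample 3 was low for Pcolce, an enhancer of procollagen processing (0.912; 204, 193, 105.5 and 205 units).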

How the results depend on the processing

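The count of members past the variance test stayed at 0 under each alternative run, with 1 to 3 members at an unadjusted p under 0.05. The count with a range of at least 2-fold, 8 of 37, was 34 of 117 with no filter on signal, 22 of 59 with the filter on values above the floor, and 5 with log2(signal + 16). With 1 sample left out it ran from 3 to 8. The median range and the median deviations moved by less than 1 SD throughout. Here 1 SD was the median over members of the SD of log2 signal between samples, 0.27. Each median deviation was smaller than that, so this limit could not show whether the deviations held. With no filter on signal the median deviation was 0 in all 4 samples. The deviation of sample 2 was above 0 in only 7 of 10 alternatives, that of samples 1 and 4 in 9 of 10, and that of sample 3 in 0 of 10. Of 320 ranges of named members under alternatives, 31 moved by over 1 SD of the probe set's own log2 signals. Median scaling put the median deviation of all probe sets at -0.09 in sample 2 and 0.11 in sample 4, so the members' -0.06 and 0.13 there are to be read against those. Signals near the floor limit the low members.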

Other observations

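Below the analysed range, 26 of 80 member probe sets spanned at least 2-fold, 14 of them with all 4 values above the floor. The share over all probe sets below that range was not computed, so the 26 are not read as a trait of matrix genes. With no filter on signal, 34 of 117 members spanned at least 2-fold, beside 22.6% of all probe sets. Among probe sets above the floor in all samples it was 22 of 59 members, beside 21.2%. The genes named here were chosen after their values had been seen. Col6a3, the third chain of type VI collagen, gave 64.1, 28.8, 38.0 and 210.3 units in samples 1 to 4, a range of 7.31-fold with sample 4 highest, while its partner chains Col6a1 and Col6a2 spanned 1.30-fold and 1.10-fold. Col7a1, the anchoring fibril collagen best known from skin, gave 134 and 166 units in samples 1 and 2 and 41.7 in sample 4, with a value under the floor in sample 3, a range of 6.01-fold or more. The laminin alpha chain genes did not share an order. Lama2, the alpha chain of muscle and vessel basement membranes, was highest in sample 3 (60.9, 105 and 77.7 units in samples 1, 3 and 4, under the floor in sample 2), and Lama4, of endothelial basement membranes, was highest in sample 2 (28.5, 128 and 74.0 units in samples 1 to 3, under the floor in sample 4). Col5a2, the partner chain of Col5a1, gave 126, 52.3, 109 and 60.1 units, with samples 1 and 3 above samples 2 and 4, as for Col11a1.

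Among proteases below the analysed range, Adam19 gave 126, 73.7, 122 and 44.2 units and Adam17, the sheddase of tumour necrosis factor, gave 69.5, 30.7, 55.2 and 40.8 units, both higher in samples 1 and 3 than in samples 2 and 4. Mmp11 was lowest in sample 3 (79.8, 69.0, 30.9 and 92.5 units). Mmp16, a membrane-type metalloproteinase, gave 104 units in sample 3 and 34.8 in sample 1 and was under the floor in samples 2 and 4.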
